A study of Mus musculus with 4 samples.

Results

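The Iroquois homeobox loci are the 6 mouse genes Irx1 to Irx6, described here through the genomic regions that the transcription factor OTX2 occupied around them. A region belongs to an Iroquois gene if its midpoint lies inside the gene span, or if an end of that gene is the nearest protein-coding gene end within 100 kb, with genes taken from RefSeq on mm10. By this rule 34 of the 39615 regions in the 4 deposited lists were assigned to the 6 genes. A further 37 regions lay between members of a cluster but over 100 kb from any protein-coding gene end, and these are described beside the assigned ones.

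OTX2 was mapped by CUT&RUN, in which an antibody directs a nuclease to a chromatin protein and the released DNA is then sequenced. OTX2 carried an HA tag, to which the antibody binds, in edited lines of a BL6/129 hybrid background that the labels name OTX2-dTAG-EGFP. The libraries are 3 anti-HA libraries of primitive streak (PS) cells, each from its own named line (7H, 7H1 and 7H2), and 1 IgG control library of PS cells from line 7H2. PS cells had been exposed for 16 h to CHIR (3 uM), which activates WNT signalling, and to Activin A at 40 ng/ml. Definitive endoderm (DE) cells next received LDN (100 nM), which blocks BMP receptors, with Activin A at 100 ng/ml, for another 24 h. The starting epiblast stem cells grew with NVP (175 nM), FGF2 (12.5 ng/ml) and Activin A at 20 ng/ml. Per the labels' protocols, tagged OTX2 was mapped in epiblast stem cells, PS and DE cells, all of them cultured, but the libraries of epiblast stem cells and DE cells were not analysed here. Whether the EPI of the list names is the starting population is not spelled out in the labels. The lists name regions bound in EPI and PS (379 regions), in PS only (1634), in PS and DE (6157) and in DE only (31445). They carry no height and no value per library, so depth is unknown, no spread between replicates exists, anti-HA cannot be set against IgG, and every count below is given without a test between samples.

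Iroquois proteins are homeodomain transcription factors of the TALE class, which carry extra residues between helices of the homeodomain. In mouse they form a pair of clusters of 3 genes each. IrxA holds Irx1, Irx2 and Irx4 on chromosome 13, and IrxB holds Irx3, Irx5 and Irx6 on chromosome 8. Irx1 and Irx3, Irx2 and Irx5, and Irx4 and Irx6 are paralogous pairs, and long gene-poor stretches inside each cluster are known to carry enhancers. The family is best known for subdividing the neural plate, heart and limb, and several members are also expressed in foregut derivatives such as the lung.

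Upstream sequence is shown for Irx3, Irx3os and Crnde, because among the promoter windows of both clusters these were the 3 with an OTX2 region within 1000 bases. The RefSeq table (GRCm38.p6, which is mm10) matched 3 of the 6 members, Irx2, Irx3 and Irx4, and held 14 windows of other genes inside the clusters. Irx3os and Crnde are noncoding genes next to Irx3 and Irx5. Each line gives the 250 bases before the gene start, 5′ to 3′ on the gene's own strand. The Irx3 window is chr8:91801655-91801904 on the minus strand, and a PS and DE region begins after a gap of 81 bases at its upstream edge. The Irx3os window is chr8:91803086-91803335 on the plus strand, and a DE only region lies 467 bases from it. The Crnde window is chr8:92356121-92356370 on the minus strand, between a PS and DE region 809 bases away on one side and the DE only region at the edge of Irx5 on the other. Capitals mark TAATCC, the core letters of the OTX homeodomain motif, searched as TAATCC or, for the other strand, GGATTA.
Irx3: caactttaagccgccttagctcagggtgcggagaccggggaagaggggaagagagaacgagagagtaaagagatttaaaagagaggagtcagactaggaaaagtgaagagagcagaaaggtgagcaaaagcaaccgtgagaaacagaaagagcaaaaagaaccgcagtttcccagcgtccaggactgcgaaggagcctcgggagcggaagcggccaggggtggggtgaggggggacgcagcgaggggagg
Irx3os: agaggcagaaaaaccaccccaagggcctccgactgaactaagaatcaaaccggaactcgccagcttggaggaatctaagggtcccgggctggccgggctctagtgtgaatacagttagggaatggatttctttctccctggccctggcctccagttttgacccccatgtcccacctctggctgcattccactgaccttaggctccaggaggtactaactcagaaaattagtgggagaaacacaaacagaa
Crnde: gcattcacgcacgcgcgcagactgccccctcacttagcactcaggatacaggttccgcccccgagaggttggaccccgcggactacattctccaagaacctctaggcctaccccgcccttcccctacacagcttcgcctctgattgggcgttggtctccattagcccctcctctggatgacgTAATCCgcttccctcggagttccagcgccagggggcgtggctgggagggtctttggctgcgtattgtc
The motif occurred once in the Crnde window and in 0 of the other windows inside the clusters, those of Irx2, Irx3, Irx4 and Irx3os among them. Of all 32851 windows of this length in the table, 6.25% held it. None of these windows overlapped a region, and sequence of the regions themselves was not used here.

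Within the stage classes that have a list, OTX2 regions at the Iroquois genes came from the lists that include DE. Under this rule the regions were most numerous at Irx3 and Irx5. The DE only list gave 28 of the 34 assigned regions and the PS and DE list gave 6. These lists also make up most of the series, with 31445 and 6157 of all 39615 regions. The split by list is therefore no trait of these loci in itself. The PS only and the EPI and PS lists gave 0 each, where the mean rate of these lists over all gene territories would give 0.824 and 0.193 regions, fewer than 1 each. A gene's territory is the stretch that the assignment rule gives to it. DE only regions were found at 5 of the 6 genes, against 50.1% of all 21887 protein-coding genes, and PS and DE regions at 2 of the 6, against 16.3% of all genes. Of all genes, 5.6% had a PS only region and 1.45% an EPI and PS region. These shares take no account of territory length. At the mean rate each Iroquois territory would hold from 1.94 (Irx4) to 3.02 (Irx2) DE only regions, so at least 1 per gene is not unusual at these lengths.

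By gene, Irx3 had the most DE only regions with 10, then Irx5 with 7, Irx1 with 6, Irx2 with 3, Irx4 with 2 and Irx6 with 0. Exact Poisson 95% intervals, which cover counting error only, ran from 4.8 to 18.4 for Irx3, 2.81 to 14.4 for Irx5, 2.2 to 13.1 for Irx1, 0.619 to 8.77 for Irx2 and 0.242 to 7.22 for Irx4. The intervals of neighbours in this order overlap, and only the interval of Irx3 lies above the upper limit of 3.69 that a count of 0 gives for Irx6. Overlap of such intervals is no test of a difference, and the order was not tested. At least 10 DE only regions were assigned to 1.17% of all genes, at least 7 to 3.21%, at least 6 to 4.5%, at least 3 to 15.8% and at least 2 to 26.8%. The PS and DE list gave 3 regions to Irx3 and 3 to Irx5, a count reached by 1.87% of all genes. Irx1, Irx2, Irx4 and Irx6 had 0.

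Territories differ in length, so the counts were also set beside the mean rate of each list. IrxB territories (552 kb in all) held 3.08 DE only and 1.09 PS and DE regions per 100 kb, against 1.44 and 0.282 over all gene territories. IrxA territories, of nearly the same length (550 kb), held 2.0 DE only regions per 100 kb and 0 PS and DE regions, where the mean rate would give 1.55. The 17 DE only regions of IrxB (interval 9.9 to 27.2) and the 11 of IrxA (5.49 to 19.7) have overlapping counting intervals. The 6 PS and DE regions of IrxB (2.2 to 13.1) also overlap the 0 of IrxA, which allows up to 3.69. When noncoding genes and pseudogenes could also take regions, IrxB kept 3 DE only and 1 PS and DE region and IrxA kept 7 DE only regions, so the order of the clusters in DE only turned. The order of the genes turned too, with 5 DE only regions at Irx1, 2 at Irx5 and 1 at Irx3 in that setting. With a limit of 50 kb Irx5 had 5 and Irx3 4 DE only regions, and among regions of at least 150 bp both had 5, with 0 PS and DE regions at Irx3.

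**Figure D1:**
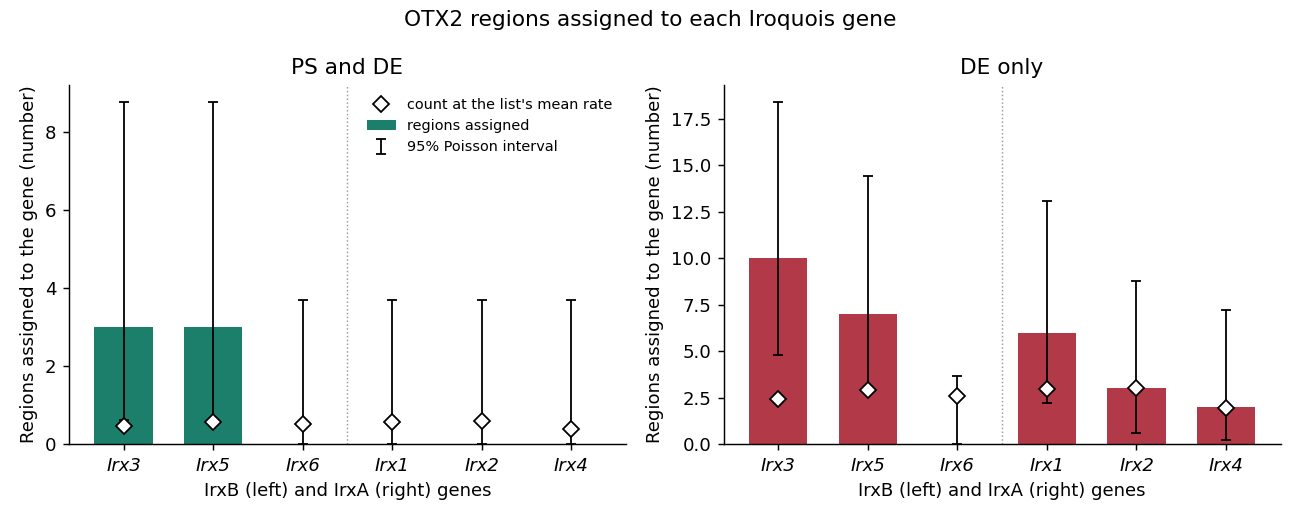
Number of PS and DE regions (left) and DE only regions (right) assigned to each Iroquois gene, as bars with exact Poisson 95% intervals. Diamonds give the count that the mean rate of the list over all gene territories would place in the territory of that gene. Irx3 (10) and Irx5 (7) lead in DE only, and only these genes have PS and DE regions (3 each).

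Irx3, which acts in neural tube patterning and is expressed in many epithelia, had a compact group of regions directly upstream of its start. The gene spans chr8:91798511-91801654 on the minus strand, so higher coordinates are upstream. A PS and DE region of 124 bp at chr8:91801986-91802109 lay 332 bases from the gene, next to the window printed for Irx3. DE only regions at chr8:91802379-91802449 (71 bp) and chr8:91802523-91802618 (96 bp) followed at 725 and 869 bases. The 3 regions together spanned 0.633 kb, with the region bound at both stages nearest the gene.

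The other Irx3 regions lay 32.9 to 71.2 kb away, on both sides of the gene. Upstream, a PS and DE region of only 44 bp at chr8:91834642-91834685 and 5 DE only regions all had their midpoints inside Irx3os, a noncoding transcript unit that starts near Irx3. Downstream, towards Fto, a PS and DE region of 141 bp at chr8:91765497-91765637 stood 0.243 kb, centre to centre, from a DE only region of 72 bp at chr8:91765289-91765360. DE only regions at 58.4 and 63.4 kb completed the downstream side. Each of the 3 PS and DE regions of Irx3 had a DE only region beside it, at most 2.66 kb away.

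Irx5, which acts with Irx3 in the developing heart, had the DE only region closest to any Iroquois gene. The gene spans chr8:92357796-92361456, and a DE only region of 246 bp at chr8:92357551-92357796 ran up to its lower-coordinate end, with 0 bases between them. Next came a PS and DE region of 173 bp at chr8:92355139-92355311 and a DE only region of 327 bp at chr8:92354418-92354744, 2485 and 3052 bases from Irx5 and inside Crnde. The PS and DE region is the one 809 bases from the Crnde window printed above. The 327 bp region was the widest of the 34 assigned regions.

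A second group at Irx5 lay 42.7 to 57.0 kb below the gene. It held PS and DE regions at chr8:92302866-92302941 (76 bp) and chr8:92303652-92303918 (267 bp), and DE only regions at chr8:92300740-92300805, chr8:92312262-92312541 and chr8:92314973-92315175. One DE only region lay 25.6 kb below Irx5, inside Crnde, and 1 lay 54.9 kb above it. Of the 10 Irx5 regions, 9 were thus on the side that faces Irx3.

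Irx6, the paralogue of Irx4, had 0 regions of any list in a territory of 180 kb, where the mean rates would give 2.59 DE only and 0.507 PS and DE regions. It shares a DE only count of 0 with 49.9% of protein-coding genes. The nearest region below Irx6 (chr8:92674289-92680956) was DE only, 168 kb away, and the nearest above was PS and DE, 96.3 kb away but nearer to Mmp2, a metalloprotease gene. The upper limit of 3.69 for a count of 0 lies above both mean rate counts. Binding at Irx6 that all stages share, or that EPI has and PS lacks, would appear in none of the lists.

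The stretch between Irx3 and Irx5 held more OTX2 regions than the assigned counts show. This interval (chr8:91801655-92357795, 556 kb) was singled out after its values were seen. It held 12 PS and DE regions (exact Poisson 95% interval 6.2 to 21.0) and 23 DE only regions (14.6 to 34.5), and 0 of the other lists. The rates were 2.16 PS and DE and 4.14 DE only regions per 100 kb, against 0.128 and 0.644 over all 1689 intervals of at least 200 kb between neighbouring protein-coding genes. At least 12 PS and DE regions were found in 0.178% of these intervals and at least 23 DE only regions in 0.533%.

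In PS and DE count, the interval was 1 of 3 that reached 12, the others being Saraf to Dusp4 (12 regions in 637 kb) and Cd83 to Jarid2 (13 in 928 kb). By PS and DE rate, 4 intervals or 0.237% reached that of Irx3 to Irx5. The other intervals at that rate were Lhx1 to Mrm1 (3.13 per 100 kb), Grik3 to Csf3r (2.59) and Map4k3 to Tmem178 (2.32), all shorter. By DE only rate, 1.36% of the intervals reached it. These neighbours in rank were named after their values were seen.

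**Figure D2:**
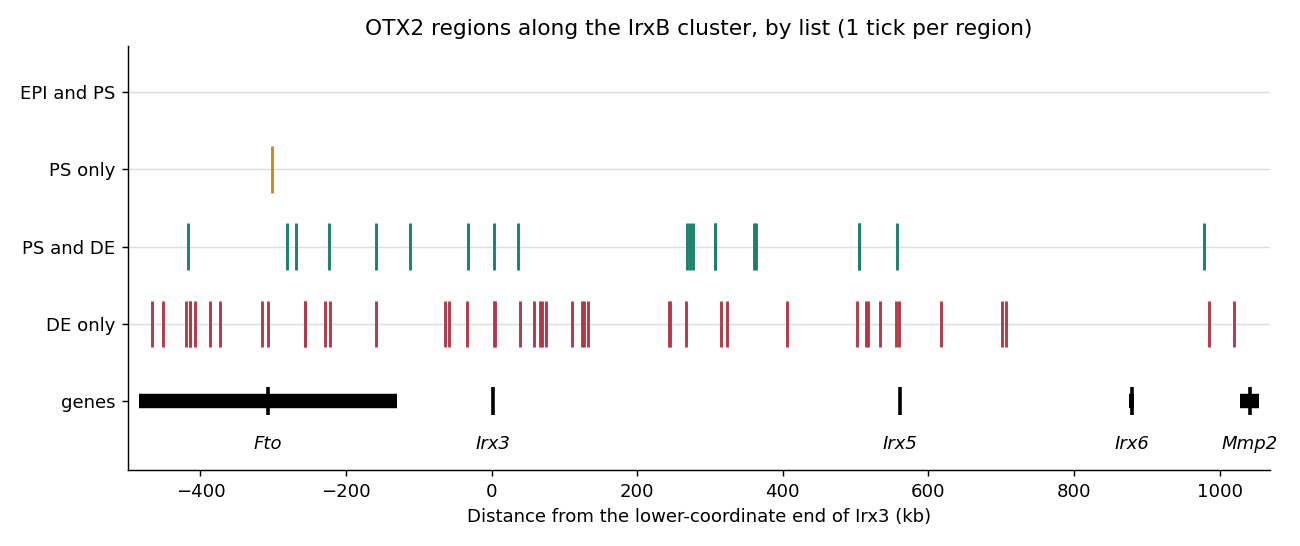
Positions of OTX2 regions of each list (1 tick per region) along IrxB, in kb from the lower-coordinate end of Irx3, with genes as black bars at the bottom. The 35 regions between Irx3 and Irx5 and the 21 inside Fto contrast with the 3 between Irx5 and Irx6, and the EPI and PS row is empty. Regions assigned to genes other than those shown were not drawn.

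In the middle of this interval, far from both genes, PS and DE regions stood close together. A PS and DE region of 182 bp (chr8:92066554-92066735), one of 507 bp (chr8:92070603-92071109) and one of 109 bp (chr8:92075215-92075323) formed a run of 9.67 kb with a DE only region at chr8:92065654-92065751. The run lay 264 kb from Irx3 and 282 kb from Irx5. The 507 bp region was the widest of all regions in either cluster, against a median of 123 bp for the PS and DE list. A pair of PS and DE regions followed at chr8:92104661-92104849 and chr8:92105388-92105440, and another pair at chr8:92158383-92158609 and chr8:92161551-92161739.

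DE only regions of the same interval were spread from end to end, and a run made of DE only regions alone lay nearer Irx3. Regions at chr8:91922137-91922249, chr8:91926017-91926178 and chr8:91930622-91930830 formed a run of 8.69 kb, 120 kb from Irx3, with 0 PS and DE regions within 87.5 kb of any of them. Counting all runs of at least 3 regions whose centres were up to 5 kb apart, 5 lay in IrxB, all 5 of them between Irx3 and Irx5, and 0 in IrxA. The 0 of IrxA depends on that limit. DE only regions there, with centres 158.675, 160.944 and 165.983 kb from Irx2, missed it by a last gap just over 5 kb. No count of such runs over the genome is given here. Regions also stood this close inside Fto, where DE only regions at chr8:91378878-91378976 and chr8:91384470-91384549 lay 2.474 and 3.108 kb from a PS and DE region between them. Beyond 100 kb from the genes, IrxB held 19 regions, of which 7 were PS and DE and 12 DE only. The interval from Irx5 to Irx6 contributed 2 of these, both DE only, at chr8:92500274-92500426 and chr8:92505678-92505892.

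**Figure D3:**
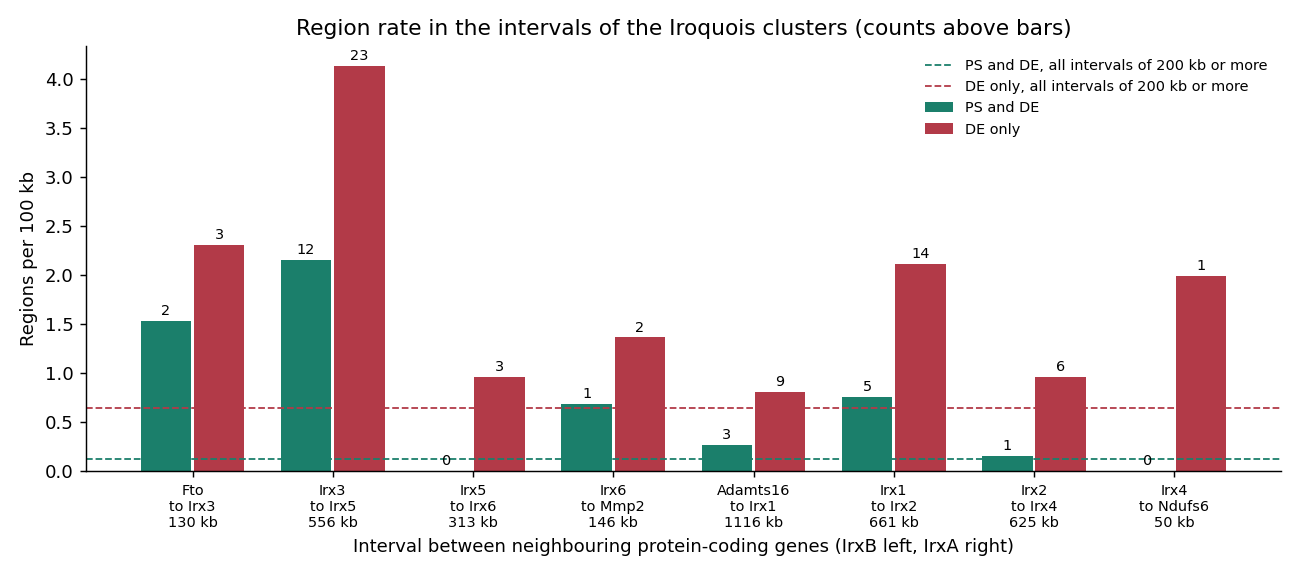
Regions per 100 kb in each interval between neighbouring protein-coding genes at IrxB and IrxA, with region counts above the bars. Dashed lines give the rates over all intervals of at least 200 kb (0.128 PS and DE, 0.644 DE only). Irx3 to Irx5 has the highest bar of both lists.

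Fto, which flanks Irx3 and encodes an RNA demethylase, is known in mouse to hold noncoding sequence that contacts the Irx3 promoter, although the rule gives regions inside it to Fto itself. Its span (chr8:91313367-91668433, 355 kb) held 15 DE only, 5 PS and DE and 1 PS only region. With 1 PS and DE region between it and Irx3, Fto had 22 assigned regions, against mean rate counts of 6.05 DE only and 1.18 PS and DE. At least 15 DE only regions were found for 0.288% of genes and at least 6 PS and DE regions for 0.228%. The PS only region, at chr8:91496247-91496324, was the only one of its list plotted along IrxB. The files give no contact between these regions and Irx3.

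Irx1, which is expressed in the developing lung and limb, had the most regions of IrxA with 6, all DE only. The gene spans chr13:71958232-71963723, and its nearest regions lay 1517 bases below it at chr13:71956590-71956715 (126 bp) and 4569 bases above it at chr13:71968292-71968353 (62 bp). Of the others, 3 lay 23.1 to 66.4 kb away on the side of Irx2, and 1 lay on the far side at chr13:71860188-71860278. Its count was 6 against 2.96 at the mean rate.

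Irx2, a paralogue of Irx5, had 3 DE only regions against 3.02 at the mean rate. They lay at chr13:72616956-72617074 (7356 bases upstream of the gene span), chr13:72640295-72640419 (6099 bases downstream) and chr13:72590204-72590328 (34102 bases upstream). Irx4, a heart ventricle gene, had 2 against 1.94 at the mean rate, one 20751 bases downstream at chr13:73290373-73290605 and one 99011 bases upstream at chr13:73160492-73160578. For both genes the count was close to that of an average territory of the same length.

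**Figure D4:**
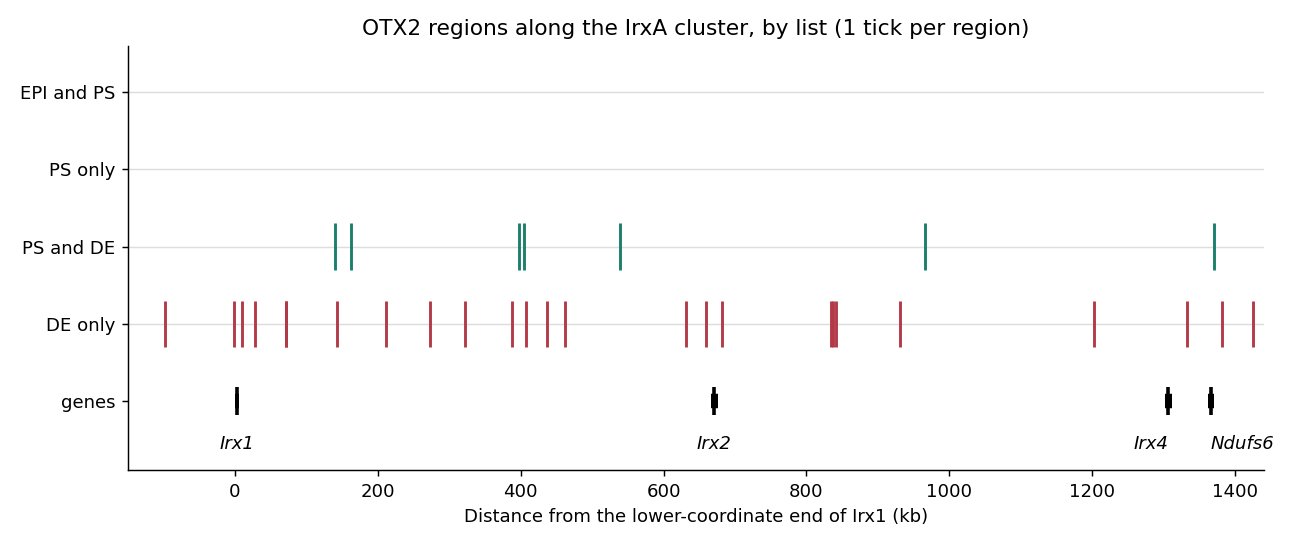
Positions of OTX2 regions of each list (1 tick per region) along IrxA, in kb from the lower-coordinate end of Irx1, with genes as black bars at the bottom. PS and DE regions occur between the genes, 5 of them between Irx1 and Irx2, and 1 beside Ndufs6, and the EPI and PS and PS only rows are empty. Regions over 100 kb below Irx1 were not drawn, so the left end of the plot is blank for that reason.

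PS and DE regions of IrxA lay exclusively far from the genes. Of the 18 regions over 100 kb from any gene end, 6 were PS and DE and 12 DE only, whereas the 11 assigned regions were all DE only. The share of PS and DE among regions of these 2 lists was 33.3% far from the genes (95% Wilson interval 16.3 to 56.3) and 0% of the assigned regions (0 to 25.9), and these intervals overlap. In IrxB the shares were 36.8% (19.1 to 59.0) far from the genes and 26.1% (12.5 to 46.5) of the assigned regions. Among all regions on chromosomes that the rule gave to no gene the share was 16.3% (15.3 to 17.4), below the interval of the far regions in IrxB, while the interval of those in IrxA reached down to 16.3%. These intervals treat regions as independent, and no test was made.

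The Irx1 to Irx2 interval (661 kb) held 5 PS and DE and 14 DE only regions, counts reached by 3.43% and 4.5% of the long intervals. Its PS and DE regions included one of 407 bp at chr13:72120916-72121322 and a pair of 185 and 352 bp at chr13:72355484-72355668 and chr13:72362990-72363341. A DE only region at chr13:72365834-72365957 stood 2.73 kb, centre to centre, from the 352 bp region. The Irx2 to Irx4 interval (625 kb), nearly as long, held 1 PS and DE and 6 DE only regions. Across the whole cluster spans, IrxB had 12 PS and DE and 26 DE only regions in 882 kb and IrxA had 6 and 20 in 1311 kb.

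None of the 34 assigned regions lay inside an Iroquois gene, whereas 54.4% of DE only and 53.1% of PS and DE regions assigned to other genes lay inside theirs. The Iroquois genes are short, 3144 to 10034 bases, which leaves little span to lie in. Most assigned regions were 10 to 100 kb from their Iroquois gene, namely 20 of 28 DE only (71.4%) and 4 of 6 PS and DE regions. The shares at other genes, 24.1% and 27.0%, also count regions inside those genes. Of regions outside the other genes, 6623 of 12501 DE only and 1453 of 2523 PS and DE regions lay 10 to 100 kb away. Iroquois territories also consist mostly of sequence at that distance, so these shares are no sign of distal binding in themselves. Midpoints within 1 kb of an end of their gene, on either side of that end, were found for 3 of the 28 DE only regions and 1 of the 6 PS and DE regions, against 15.9% and 11.7% at other genes. The 4 regions belonged to Irx3 or Irx5.

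**Figure D5:**
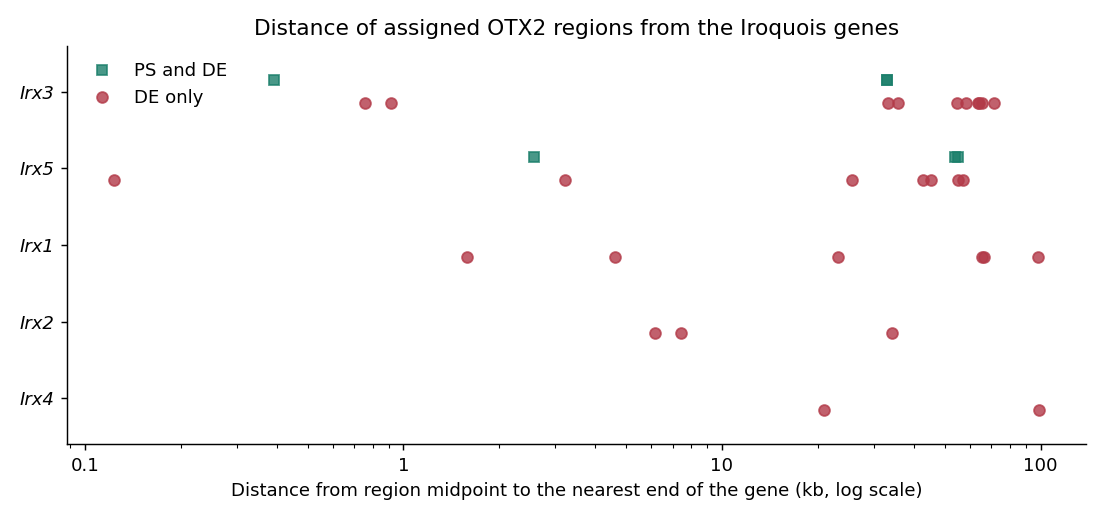
Distance from the midpoint of each assigned region to the nearest end of its gene, in kb on a log axis, with squares for PS and DE and circles for DE only regions. Irx6 has 0 regions and is not drawn. Regions under 1 kb occur at Irx3 and Irx5, and those of Irx4 lie 20.9 and 99.1 kb away.

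Noncoding genes covered the midpoints of 8 of the 28 DE only and 2 of the 6 PS and DE assigned regions, against 16.7% and 17.0% of regions outside gene spans that were assigned to other genes. Of the 37 far regions 0 were covered, against 17.9% of DE only and 21.4% of PS and DE regions elsewhere that the rule gave to no gene. Widths at the loci were near those of the whole lists close to the genes and somewhat larger far from them. Assigned DE only regions had a median of 125 bp (62 to 327) and far ones 144.5 bp (67 to 277), against 119 bp for the list. Assigned PS and DE regions had a median of 132.5 bp (44 to 267) and far ones 185 bp (53 to 507), against 123 bp. No test was made of these widths, since regions are not replicates.

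Some DE only regions of the Iroquois genes, all at Irx3 or Irx5, had a region of another list beside them. Within 5 kb, centre to centre, this was so for 7 of 28 (25.0%, Wilson interval 12.7 to 43.4), against 8.67% (8.36 to 8.99) of the other DE only regions. Within 1 kb it was 4 of 28 (14.3%, 5.7 to 31.5) against 2.99% (2.81 to 3.18). All the partners were PS and DE regions, and the 7 DE only regions were at Irx3 and Irx5. The intervals treat regions as independent, which neighbours in a group are not. The shares were not adjusted for the local PS and DE rate, which was 1.09 per 100 kb in IrxB territories against 0.282 over all gene territories. Some, but not all, DE only regions inside Fto also had such a partner, the closest at 1.035 and 1.36 kb, so the trait is not particular to the Iroquois genes.

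The other 12 TALE class genes, which include the Meis, Pbx, Pknox and Tgif cofactors, had DE only regions at 9 genes and PS and DE regions at 5. Of all protein-coding genes, 50.1% had a DE only and 16.3% a PS and DE region. The median DE only count of these TALE genes was 3, against 1 over all genes, with 12 regions at Pknox2, 10 at Meis1, 8 at Pbx3 and 7 at Meis2. These shares and medians take no account of territory length. Iroquois territories held 2.54 DE only and 0.544 PS and DE regions per 100 kb, and those of the other TALE genes 2.24 and 0.269. Over all gene territories the rates were 1.44 and 0.282, so the PS and DE rate of the other TALE genes was slightly below the mean. In PS and DE, Meis1 had the most, with 2 regions.

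Of 12 neural plate and midbrain-hindbrain genes, 11 had DE only and 6 had PS and DE regions, against 50.1% and 16.3% of all genes. The median DE only count of the 12 was 2, against 1 over all genes, again without regard to territory length. Lmx1b, a LIM homeobox gene of the midbrain-hindbrain boundary, had 9 DE only and 4 PS and DE regions, and Pax2 had 6 and 2. En2 and Six3 had 4 DE only regions each, Fgf8 had 3 PS and DE and Hesx1 2, and Otx1 had the single PS only region. Per 100 kb these 12 genes held 2.60 DE only and 0.992 PS and DE regions, against 1.44 and 0.282 over all gene territories. By counts over the 4 lists, 7 genes had the same counts as Irx3, and those closest to it in territory length were Ahdc1, Prkch and Jarid2.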

How the data were processed

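CUT&RUN libraries of PS cells (3 anti-HA, 1 IgG) are described by the labels. The authors deposited 4 lists of regions with 3 columns, chromosome, start and end, and no other value. The submitters' processing notes name MACS2 2.2.6, bedtools 2.30, Picard 2.26.10, SAMtools 1.14 and Bowtie2 2.3.5.1, on mm10, with neither order nor settings. The peak threshold, use of the IgG library and combination of replicates and stages were not given in the sources used here, and they bear on list lengths and widths. Depth per library is unknown.

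Starts were converted to count from 1. The lists share 0 bases, and 2 regions on unplaced scaffolds entered no assignment. Regions were assigned to 21887 RefSeq protein-coding genes with Python 3.11.15 and scipy 1.17.1, and the rule gave 0 mismatches at 8200 positions around the loci against a direct search. Poisson and Wilson intervals are at 95% and cover counting error only. Genes named are the 6 members, the flanking genes, up to 4 genes per region list from each comparison list with the most regions, and the 3 genes most like Irx3. Some genes that this rule names are left out. The intervals named beside Irx3 to Irx5 were added after their values were seen. The members and lists were chosen with earlier results of these data known. No test was run, because no value per sample exists.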

Additional observations from a re-analysis of the deposited data

How the results depend on the processing

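Merging regions within 500 bp, letting any base decide whether a region is inside a gene, and using the nearest gene end for all regions left every count of assigned regions within 1.5 times its value, and merging also did so for regions far from the genes. A width of at least 150 bp left 12 DE only and 2 PS and DE assigned regions (IrxB 10 and 2, IrxA 2 DE only) and 5 DE only far regions in IrxB and 6 in IrxA. A width of at least the list median left 16 assigned DE only regions (IrxB 10, IrxA 6) and 6 far DE only regions in IrxB. A limit of 50 kb left 16 assigned DE only regions (IrxB 9, IrxA 7), and with it Irx3 had 4 DE only regions and Irx5 1 PS and DE region. A limit of 1 Mb, which takes in the far regions, gave 54 DE only (IrxB 29, IrxA 25) and 19 PS and DE regions (IrxB 13, IrxA 6). With noncoding genes and pseudogenes also taking regions, 10 DE only (IrxB 3, IrxA 7) and 1 PS and DE region (IrxB 1) stayed with the Iroquois genes, and 3 DE only and 2 PS and DE regions stayed far from any gene in each cluster. DE only counts then stood higher in IrxA than in IrxB, so the order of the clusters depends on which genes may take a region. Partners of DE only regions were found for 60.7% within 50 kb (39.7% of the other DE only regions) and for 25.0% within 5 kb. The share within 5 kb was 22.2% after merging and 16.7% among regions of at least 150 bp. No paired analysis was possible because the lists carry no value per library, and for the same reason no replicate could be left out. The unknown depth and peak threshold limit what a count of 0 can mean. A further limit is that regions shared by all stages, and EPI regions that PS lacks, have no list.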
